A study of Homo sapiens with 8 samples.

Results

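The MYC locus in 8q24 was described by its H3K27ac peaks, which are stretches of chromatin enriched for acetylated lysine 27 of histone H3, a mark of active promoters and enhancers. The members were all peaks that overlapped a window of 1.5 Mb (hg19, chromosome 8, 127.8 to 129.3 Mb). Peaks of 4 libraries were merged wherever they overlapped by 1 bp or more. This gave 114 regions in the window, of 60669 on chromosomes 1 to 22 and X. MYC lies at 128.748 to 128.754 Mb and PVT1 at 128.807 to 129.113 Mb, and both are read toward higher coordinates. Distances below run from the MYC start to the centre of a region.

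The knockdown was made in A549 cells, an established human lung adenocarcinoma line that the study describes as NRF2-activated, 48 h after transfection with CEBPB siRNA-1 (1 library, siRNA-1) or CEBPB siRNA-2 (1 library, siRNA-2). Control cells were of the same line, 48 h after transfection with control siRNA (2 libraries, control 1 and control 2). CEBPB is a basic leucine zipper transcription factor, and how far the siRNAs lowered it was not measured by these libraries. The 2 siRNAs served as the replicates of the knockdown, so the spread between them includes any difference between the siRNAs. No label states that the libraries are from separate cultures, and the spread between controls may be technical.

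MYC encodes a transcription factor that pairs with MAX and drives growth and ribosome production. It stands nearly alone among protein-coding genes in a large interval, which is rich in enhancers that differ between tissues and that reach the MYC promoter over long distances. PVT1, next to it, makes a long noncoding RNA, carries enhancers in its body and hosts microRNAs, and in human breast cancer cells its promoter competes with that of MYC for enhancers. In some human lung adenocarcinomas, enhancers on the PVT1 side of MYC are amplified. In RefSeq (GRCh38.p14) the order of genes toward MYC is PCAT1, PCAT2, PRNCR1, CASC19, CCAT1, CASC21, CASC8, CCAT2, POU5F1B and CASC11, all but POU5F1B noncoding. MIR1204 to MIR1208 follow on the PVT1 side. That build differs from the build of the peaks, so genes other than MYC and PVT1 were not placed on the regions, and the cell line label was not checked against the promoters of its markers.

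The window was chosen by measured values, namely the missing knockdown calls of a strong region 699 kb upstream of MYC. The nearest regions outside it lay 167 kb before its start and 25.5 kb after its end, the first called in some lists only and the second in all 4. All values from the comparison of knockdown with control are therefore descriptions, and none is independent evidence of an effect. A missing peak is a missing call and not a measured absence of acetylation, because sequencing depth is unknown. Fewer cells with the mark and less of the mark per cell cannot be told apart in bulk chromatin, and the copy number of 8q24 was not measured.

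Although few protein-coding genes lie there, the window was among the stretches of the genome with the greatest called length. Peaks covered 219 kb of it in the siRNA-1 library and 198 kb in the siRNA-2 library, against 211 kb in control 1 and 187 kb in control 2. Among 1869 tiles of the same length that held any peak, the window ranked 2 and 1 by called length in the knockdown libraries and 6 and 8 in the controls. The median tile had 24.2 to 27.2 kb.

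The side of MYC away from PVT1 carried less called acetylation after knockdown, and the PVT1 side carried more. Upstream of MYC, peaks covered 26.5 kb in the siRNA-1 library and 42.3 kb in the siRNA-2 library, against 59.0 kb in control 1 and 54.5 kb in control 2. From the MYC start onward they covered 192 kb in the siRNA-1 library and 156 kb in the siRNA-2 library, against 152 kb and 133 kb in the controls. Both knockdown libraries lay below both controls upstream and above both downstream. Downstream, siRNA-2 was close to control 1, while the siRNAs differed from each other by 36.3 kb.

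The mean upstream length, with the region that chose the window included, was 34.4 ± 11.1 kb after knockdown and 56.8 ± 3.19 kb in controls (SD, n = 2 each). The difference was -22.4 kb (exact permutation test, two-sided, p = 0.333), and -17.3 kb without that region. The downstream length averaged 174 ± 25.7 kb after knockdown and 143 ± 13.7 kb in controls (SD, n = 2 each), a difference of 31.8 kb (exact permutation p = 0.333). That p is the smallest that 2 libraries against 2 allow. Without siRNA-1 the differences were -14.5 and 13.6 kb, and without siRNA-2 the downstream difference was 49.9 kb. As a share of the called length of the window in the same library, the upstream side held 12.1% after siRNA-1 and 21.3% after siRNA-2, against 27.9% and 29.1% in the controls. The difference in that share was -11.8 percentage points, and -7.21 without siRNA-1.

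These upstream values include the strong region whose missing knockdown calls chose the window. Without it the upstream length was the same after knockdown, against 53.96 kb in control 1 and 49.4 kb in control 2, a difference of -17.3 kb (exact permutation p = 0.333). That difference was -9.38 kb without siRNA-1. The upstream share without it differed by -9.92 percentage points, and by -5.32 without siRNA-1.

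**Figure D1:**
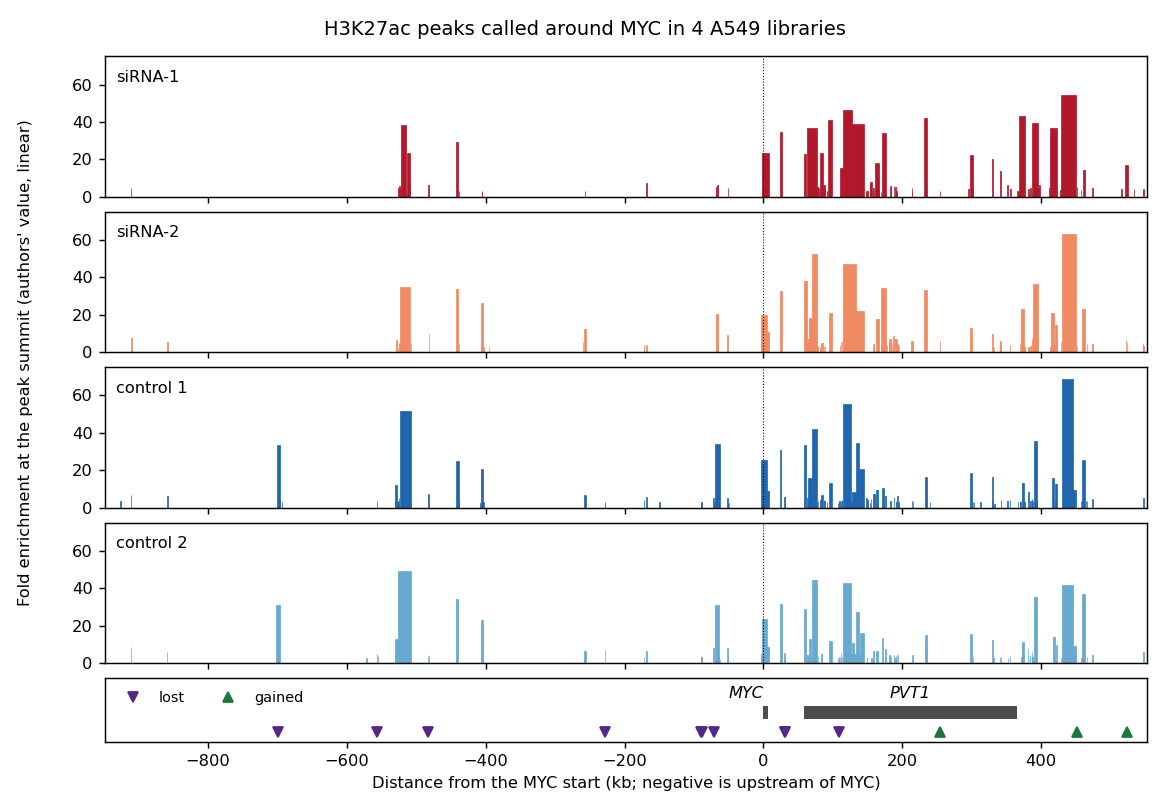
Peaks of each library by distance from the MYC start (x axis, kb). Each bar spans a peak and its height is the authors' fold enrichment at the summit. The bottom strip marks MYC, PVT1, 10 lost and 3 gained regions. The strong peak 699 kb upstream appears only in the control tracks, while the PVT1 side is densely filled in all 4.

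The 2 sides offset each other over the whole window. The window held 209 ± 14.5 kb after knockdown and 199 ± 16.9 kb in controls (SD, n = 2 each), a difference of 9.40 kb smaller than the SD of either group (exact permutation p = 0.667). It was -2.55 kb without control 2 and -0.88 kb without siRNA-1. Leaving out the strong region 699 kb upstream gave a difference of 14.5 kb (exact permutation p = 0.667), which was 2.50 kb without control 2, 4.22 kb without siRNA-1, 26.5 kb without control 1 and 24.8 kb without siRNA-2. Peaks in the window numbered 84 after siRNA-1 and 96 after siRNA-2, against 116 in control 1 and 100 in control 2, although both knockdown lists were the longer ones genome-wide (47370 and 48216 peaks, against 45537 and 45651). The difference in their mean number was -18, but -10 without control 1, -12 without siRNA-1 and -2 among peaks whose −log10 q reached 10.

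By distance, the class 500 to 750 kb upstream of MYC holds the strong region that chose the window. There 15.3 kb were called after siRNA-1 and 19.5 kb after siRNA-2, against 27.7 kb in control 1 and 28.7 kb in control 2. Without that region the controls had 22.7 and 23.5 kb, and the difference in means was -5.69 kb. The class 50 to 100 kb upstream had 2.35 and 5.02 kb after knockdown, against 11.1 and 9.49 kb in the controls, a difference of -6.59 kb. Between these, at 250 to 500 kb, siRNA-1 had 5.76 kb and siRNA-2 had 11.7 kb, against 12.1 and 10.2 kb in the controls, so the groups overlapped. At 100 to 250 kb they did not, with 1.08 and 1.57 kb after knockdown against 3.51 and 2.16 kb in the controls. In the first 50 kb upstream and at 750 to 1000 kb upstream the groups overlapped.

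On the PVT1 side, the class 100 to 250 kb from MYC had 63.9 and 59.8 kb after knockdown, against 55.2 and 46.9 kb in the controls. At 250 to 500 kb it was 77.95 kb after siRNA-1 and 57.54 kb after siRNA-2, against 56.69 and 49.99 kb in the controls. Both classes were above both controls in both knockdown libraries, though at 250 to 500 kb siRNA-2 lay close to control 1. The first 50 kb went the other way, with 11.1 and 10.7 kb after knockdown against 12.8 and 12.0 kb in the controls.

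**Figure D2:**
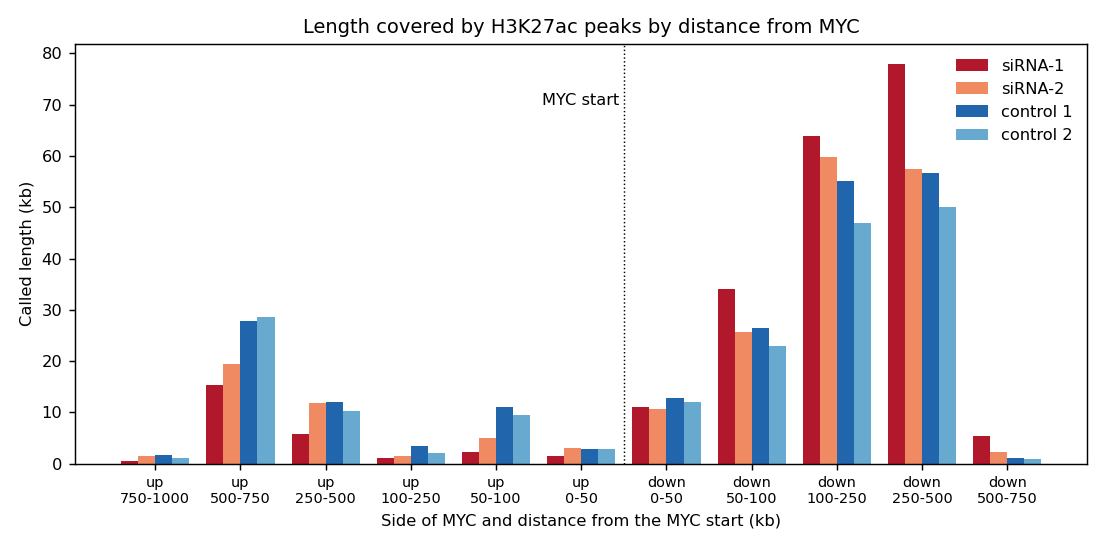
Called length (kb, y axis) in classes of distance from the MYC start (x axis), with 1 bar per library. Control bars stand above knockdown bars 500 to 750, 100 to 250 and 50 to 100 kb upstream. They also do so in the first 50 kb downstream. Knockdown bars stand above control bars from 100 kb downstream.

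Of 57 regions of the window called in both controls, 10 had no call in either knockdown library, and these are named lost here (17.5%, where 13.3% of such regions were lost over all chromosomes). Of 44 called in both knockdown libraries, 3 had no call in either control and are named gained (6.82%, where 13.6% were gained over all chromosomes). A further 39 regions were called in all 4 libraries and are named kept. The other 62 were called in some other combination, 48 of them in a single list. The lost regions include the one that chose the window, and without it they were 9 of 56. Of the 10 lost regions 7 lay upstream of MYC, out of 18 called there in both controls (38.9%), 2 between MYC and PVT1 and 1 in PVT1. Without the region that chose the window, 6 of 17 upstream were lost. Of the 3 gained regions 1 lay in PVT1 and 2 beyond it. These counts depend on every library. Lost regions numbered 19 without control 1, 28 without control 2 and 15 without siRNA-2, and gained regions numbered 20 without siRNA-1, 20 without siRNA-2 and 5 without control 1. Leaving out a library also lowers the number of calls that a class needs. The shares over all chromosomes were not counted without a library, so these counts have no background beside them.

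At the MYC promoter the mark was called in every library. The region over the MYC start and the whole gene (chromosome 8, 128744966 to 128756593) was called over 9955 bp after siRNA-1 and 11209 bp after siRNA-2, against 11358 bp in control 1 and 11088 bp in control 2. In length the groups overlapped. The authors give each peak a fold enrichment, which is a linear ratio at its summit, and here it was 23.6 and 19.9 in the knockdown lists and 25.6 and 23.7 in the control lists. Because that ratio depends on depth, each kept region was also ranked within its own list among the same 24133 kept regions of the genome. The MYC region stood at percentiles 76.3 and 74.3 after knockdown, against 81.6 and 82.0 in the controls. Both knockdown ranks were the lower ones, a pattern found in 28.8% of all kept regions.

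The region over the PVT1 start (128805945 to 128810137) was called over 3828 bp after siRNA-1 and 4188 bp after siRNA-2, against 3705 bp in control 1 and 3824 bp in control 2. Its percentile was 75.1 after siRNA-1 and 93.2 after siRNA-2, on either side of 88.4 and 87.6 in the controls. The next region into the gene, centred 69.9 kb from MYC (128810416 to 128825335), covered 14218 and 14089 bp after knockdown, against 14357 and 13542 bp in the controls, and overlapped between groups.

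The strong region 699 kb upstream of MYC (128046455 to 128051857) had no peak after siRNA-1 or siRNA-2, and was called over 5056 bp in control 1 and 5140 bp in control 2. Its fold enrichments were 33.5 in control 1 and 31.0 in control 2, and the highest summits in the 2 controls lay 59 bp apart. By the lower of its −log10 q values in the controls, 162, it ranked 1 among the 4250 lost regions of all chromosomes. Within the window it was the 8th of the control 1 peaks and the 10th of the control 2 peaks by fold enrichment. It lies in a stretch with few peaks in any list. The neighbouring peaks on each side of it were 384 kb apart after siRNA-1 and 329 kb after siRNA-2, against 164 kb in control 1 and 287 kb in control 2. It held 32.8% of the 14.6 kb of the window that both controls, and no knockdown library, had under a peak.

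The other 9 lost regions were short and weak, 335 to 1288 bp wide with control fold enrichments of 3.28 to 8.05. They were centred 557, 483, 229, 89.8, 88.9 and 71.9 kb upstream of MYC, and 30.4, 31.5 and 109 kb downstream. Of these, the region 71.9 kb upstream and the region 30.4 kb downstream also reached a −log10 q of 10 in each control. They were 2 of the 31 regions of the window that did so, leaving out the strong region that chose the window (3.43% of such regions were lost over all chromosomes). The pair 30.4 and 31.5 kb downstream (128777776 to 128779809) was the only loss between MYC and PVT1, next to a region 25.0 kb from MYC that was kept with 2680 and 2475 bp after knockdown, against 2475 and 2587 bp in the controls.

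Upstream of MYC, 5 of the 9 kept regions were shorter in both knockdown libraries than in both controls and 1 was longer, where 25.6% of all kept regions were shorter and 26.9% longer. By percentile only 2 of the 9 were lower in both knockdown libraries and 0 were higher, where 28.8% of all kept regions were lower and 26.7% higher. Kept regions described without a place among the 10 strongest, at a gene start or among those that doubled were chosen after their values were seen. The largest upstream region, 519 kb from MYC (128217333 to 128240434), was called over 15305 bp after siRNA-1 and 19491 bp after siRNA-2, against 21488 bp in control 1 and 22559 bp in control 2. Among the 39 kept regions of the window it ranked 7 after siRNA-1 and 6 after siRNA-2 by fold enrichment, against 3 in control 1 and 1 in control 2.

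That upstream cluster was called less at the end far from MYC. At its outer edge no peak was called after siRNA-1 and a peak of 1611 bp, enriched 6.81-fold, after siRNA-2. Control 1 had a peak of 2780 bp there, enriched 12.0-fold, and control 2 one of 4371 bp, enriched 13.1-fold. The main stretch was split after siRNA-1, with a longest peak of 6924 bp, and was 1 peak of 15094 bp after siRNA-2, against 1 of 16511 bp in control 1 and 1 of 18188 bp in control 2.

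The region 66.2 kb upstream of MYC (128678603 to 128685076) was called over 1937 bp after siRNA-1 and 3183 bp after siRNA-2, against 6348 bp in control 1 and 6211 bp in control 2. Its mean length was 40.8% of that in controls. It ranked at percentiles 20.1 and 75.9 after knockdown, against 88.7 and 89.1 in the controls, so both knockdown libraries were lower but by very different amounts. It just missed being at most 1 part in 2 of the shorter control in both libraries. No kept region of the window passed that limit, which 2.25% of kept regions over all chromosomes did.

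The next kept region toward MYC, 51.6 kb upstream, was called over 417 bp after siRNA-1 and 1836 bp after siRNA-2, against 2027 and 2023 bp in the controls. Its percentiles of 9.12 and 37.96 after knockdown overlapped the 10.9 and 34.96 of the controls. The region 441 kb upstream (128304970 to 128309504) was called over 3488 bp after siRNA-1 and 3799 bp after siRNA-2, against 4240 bp in control 1 and 3564 bp in control 2, with percentiles of 82.8 and 90.7 against 80.9 and 90.8. Neither its length nor its rank separated the groups. A weaker region 482 kb upstream was the only one on that side longer in both knockdown libraries, with 1071 and 1117 bp against 1038 and 738 bp.

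**Figure D3:**
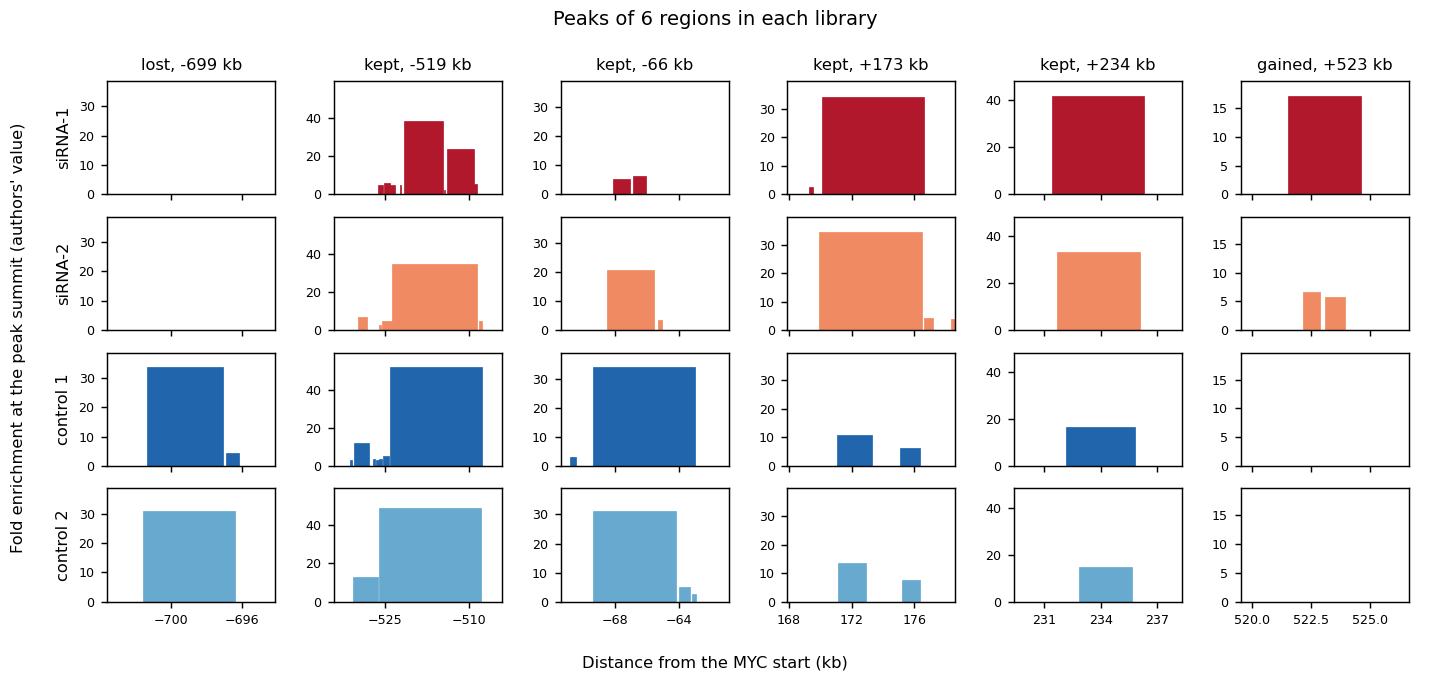
Peaks of 6 regions (columns, with class and distance from MYC) in each library (rows). The x axis is the distance from the MYC start in kb and bar height is the authors' fold enrichment at the summit. The region 699 kb upstream has no knockdown peak and the region 523 kb downstream has no control peak, and those 173 and 234 kb downstream have wider peaks in the knockdown lists.

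Within PVT1, 9 of 19 kept regions were longer in both knockdown libraries than in both controls and 1 was shorter (26.9% and 25.6% of all kept regions). Peaks covered 111 kb of the gene after siRNA-1 and 92.2 kb after siRNA-2, against 91.1 kb in control 1 and 75.6 kb in control 2. The knockdown libraries did so with fewer peaks, 40 and 44 against 50 and 48. By percentile 9 of the 19 were higher in both knockdown libraries and 1 lower, where 26.7% of all kept regions were higher and 28.8% lower.

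The region 173 kb downstream of MYC (128917907 to 128924595) was called over 6471 bp after siRNA-1 and 6557 bp after siRNA-2, against 3529 bp in control 1 and 2933 bp in control 2. The knockdown lists held it as a single peak, enriched 34.2-fold and 34.5-fold, and the control lists as separate shorter peaks enriched at most 10.7-fold and 13.5-fold. Its percentile was 86.9 and 91.1 after knockdown, against 45.5 and 60.2 in the controls. Both siRNAs gave nearly the same values here.

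Its neighbour 163 kb downstream (128908883 to 128913926) covered 5044 and 4095 bp after knockdown, against 2413 and 2143 bp in the controls, at percentiles of 66.4 and 69.9 against 39.1 and 25.9. The region 234 kb downstream (128979400 to 128984293) covered 4894 and 4419 bp after knockdown, against 3607 and 2814 bp in the controls, at percentiles of 91.5 and 90.2 against 64.9 in each control. In these stretches of PVT1 the groups did not overlap in length or in rank. The 1 kept region of PVT1 that was shorter in both knockdown libraries lay next to the first of these, 159 kb downstream, with 1510 and 1223 bp after knockdown against 2033 and 1584 bp in the controls.

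One kept region of PVT1 was at least 2 times as long in both knockdown libraries as in the longer control (2.73% of all kept regions were). It lay 341 kb downstream of MYC (129088151 to 129090812), with 2662 bp after siRNA-1 and 2043 bp after siRNA-2, against 437 bp in control 1 and 821 bp in control 2. Its percentile was 55.4 and 18.9 after knockdown, against 3.80 and 1.06 in the controls. A gained region 254 kb downstream of MYC (129002039 to 129002718) was called over 340 and 673 bp after knockdown, with fold enrichments of 3.11 and 5.87.

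The longest acetylated stretch of PVT1, 129 kb from MYC (128862165 to 128892607), differed little in size. It covered 30223 and 30225 bp after knockdown, against 29025 and 27860 bp in the controls, with a mean of 106% of that in controls. It was longer in both knockdown libraries, and its percentiles of 93.4 and 96.5 after knockdown overlapped the 97.0 and 94.8 of the controls.

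**Figure D4:**
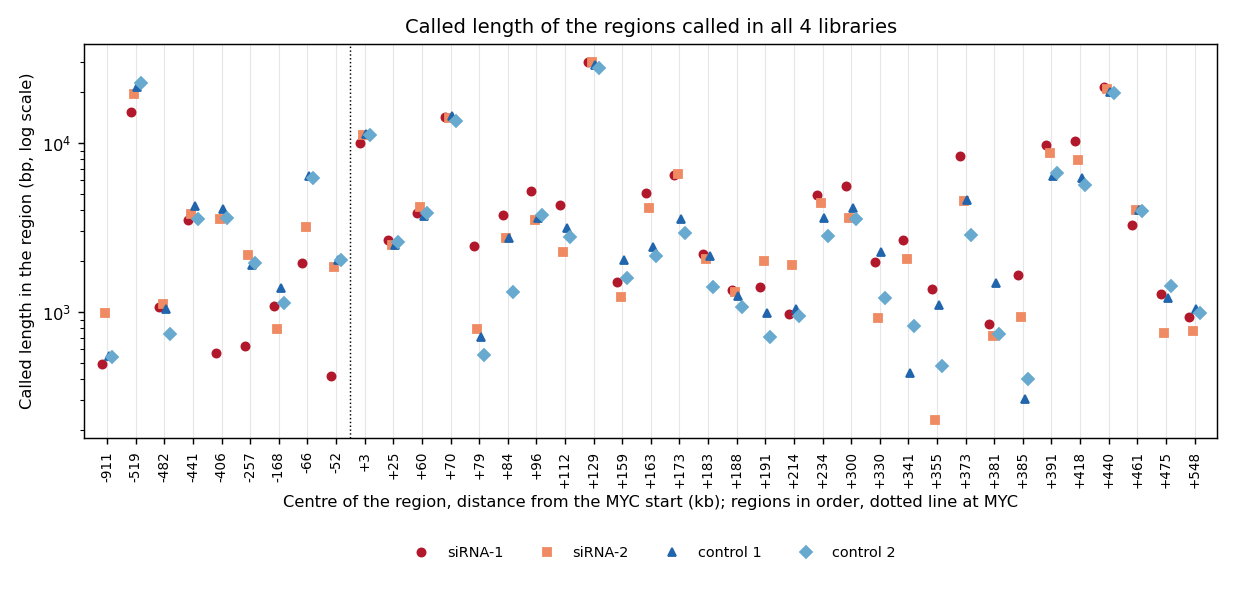
Called length in bp (log scale, y axis) of the 39 kept regions, in order of distance from the MYC start (x axis, kb). Each symbol is 1 library. Left of the dotted line control symbols tend to lie above knockdown symbols, with 5 of 9 regions shorter in both knockdown libraries. Right of it 13 of 30 were longer in both and 2 shorter. Of all kept regions, 26.9% were longer and 25.6% shorter.

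Beyond PVT1, peaks covered 68.8 kb after siRNA-1 and 52.2 kb after siRNA-2, against 47.4 kb in control 1 and 44.2 kb in control 2. Of 9 kept regions there, 4 were longer and 1 was shorter in both knockdown libraries (26.9% and 25.6% of all kept regions). By percentile 2 were higher and 3 lower, near the 26.7% and 28.8% of all kept regions. The strongest region there, 440 kb downstream of MYC (129177278 to 129198778), covered 21417 bp after siRNA-1 and 20771 bp after siRNA-2, against 19945 bp in control 1 and 19711 bp in control 2. It was the first of the 39 kept regions by fold enrichment in siRNA-1, siRNA-2 and control 1 and the fourth in control 2.

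Its neighbours toward MYC were longer by more. The region 418 kb downstream (129160793 to 129171584) covered 10228 and 7907 bp after knockdown, against 6208 and 5629 bp in the controls, at percentiles of 88.7 and 76.9 against 64.6 and 63.1. The region 391 kb downstream (129134221 to 129143911) covered 9691 and 8671 bp against 6403 and 6654 bp, while its percentiles of 90.2 and 92.1 overlapped the 89.9 and 91.4 of the controls. The second region that at least doubled lay between these and PVT1, 385 kb downstream (129132279 to 129133956), with 1661 and 929 bp against 306 and 399 bp. It was weak in all 4 lists, at percentiles of 7.55 and 1.03 after knockdown, against 1.152 and 8.91 in the controls.

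The strongest gained region lay 523 kb downstream of MYC (129269521 to 129272637), near the far end of the window. It was called over 3117 bp after siRNA-1 and 1553 bp after siRNA-2, enriched 17.1-fold and 6.70-fold, and no peak was called there in control 1 or control 2. By the lower of its −log10 q values after knockdown, 17.8, it ranked 310 of the 4103 gained regions of all chromosomes. Of 28 regions of the window that reached a −log10 q of 10 after both siRNAs, it was the only gained one (4.37% of such regions were gained over all chromosomes). The third gained region, 452 kb downstream (129199402 to 129199905), had fold enrichments of 5.03 and 3.55 after knockdown.

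Of the 9 kept regions beyond PVT1, 2 ranked higher in both knockdown libraries than in both controls and 3 lower. The higher ones were the region 418 kb downstream, described above, and that 373 kb downstream. At 373 kb the percentiles were 92.1 and 80.4 after knockdown, against 55.4 and 51.6 in the controls. Called lengths there overlapped, with 8340 and 4526 bp after knockdown against 4597 and 2858 bp in the controls. The 3 lower ones are given next, and 28.8% of all kept regions ranked lower. The region 381 kb downstream (129128695 to 129130178) covered 844 and 718 bp after knockdown, against 1484 and 737 bp in the controls, and ranked at percentiles 3.82 and 0.38 against 33.9 and 35.7. The region 461 kb downstream (129207405 to 129211516) covered 3278 and 4030 bp after knockdown, against 4037 and 3951 bp in the controls, and ranked at percentiles 56.7 and 79.8 against 81.3 and 92.4. The region 548 kb downstream was shorter in both knockdown libraries, with 937 and 773 bp against 1043 and 979 bp, and ranked at percentiles 5.66 and 12.1 against 13.3 and 22.3.

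**Figure D5:**
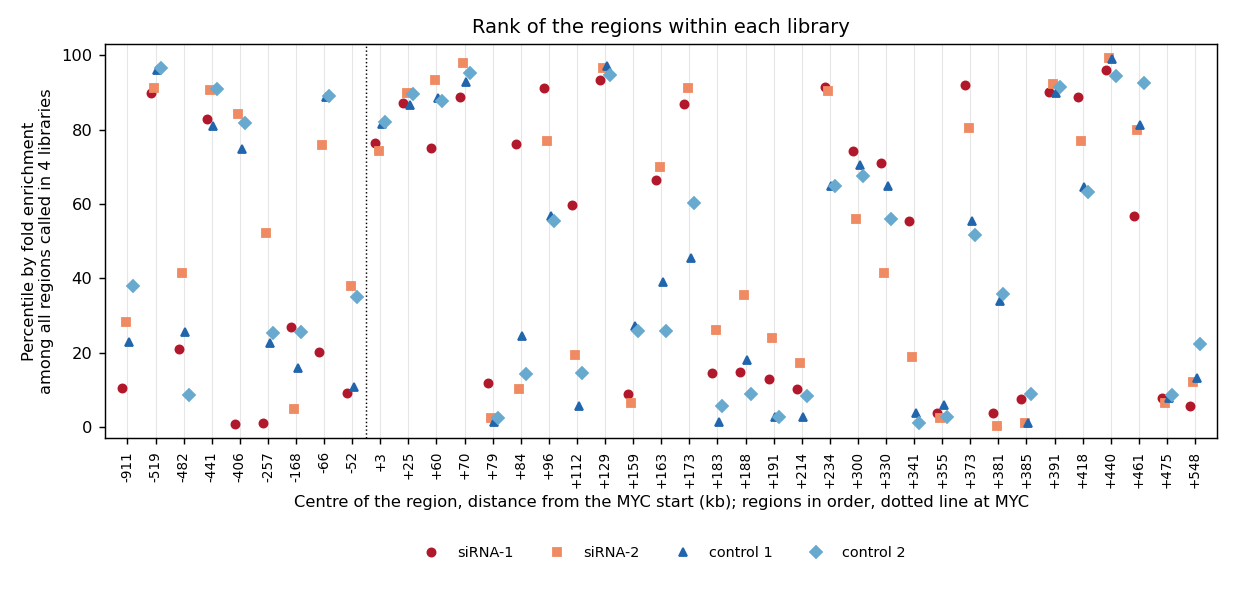
Percentile by fold enrichment (y axis) of the 39 kept regions of the window among all 24133 kept regions, ranked within each library, in order of distance from the MYC start (x axis, kb). In 11 regions both knockdown symbols lie above both control symbols and in 7 below them (26.7% and 28.8% of all kept regions). Examples above are at 163, 173 and 234 kb downstream. Examples below are at 66 and 519 kb upstream and 381 kb downstream, and the region over the MYC start is also below.

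Bases were also counted, so that merging plays no part. Upstream of MYC 12.3 kb lay under a peak in both controls but not in a knockdown library, which was 24.4% of the 50.5 kb called in both controls (12.4% over all chromosomes). Without the strong region that chose the window this was 7.55 of 45.75 kb, or 16.5%. From the MYC start onward this was 2.26 kb, or 1.85%. Over the whole window it was 14.6 kb, or 8.47%, and 5.85% without the strong region, both under the 12.4% over all chromosomes. Bases under a peak after both siRNAs but not in a control came to 0.087 kb upstream, or 0.339% of those called in both knockdown libraries, and to 16.6 kb downstream, or 11.4%, slightly under the 12.6% over all chromosomes. The gained bases were spread over PVT1, with 9.69 kb, and the part beyond it, with 6.75 kb.

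The siRNAs differed from each other in several regions. The region 406 kb upstream of MYC (128340185 to 128344570) was called over 572 bp after siRNA-1 and 3530 bp after siRNA-2, against 4067 bp in control 1 and 3613 bp in control 2. It stood at percentile 0.92 after siRNA-1 and 84.3 after siRNA-2, against 74.8 and 81.7 in the controls. After siRNA-1 it was nearly uncalled, and after siRNA-2 its rank lay above that of both controls. The region 257 kb upstream behaved alike, with 627 bp after siRNA-1 and 2167 bp after siRNA-2, against 1907 and 1941 bp in the controls. A region 859 kb upstream (127889052 to 127889861) had no peak after siRNA-1 and 477 bp after siRNA-2, against 796 and 522 bp in the controls. These differences rest on 1 library for each siRNA and were not tested.

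In and beyond PVT1 the siRNA-1 library carried more than siRNA-2. Of regions called in a single list, 17 belonged to siRNA-1 and 9 to siRNA-2, against 16 that belonged to control 1 and 6 to control 2. All 17 of siRNA-1 lay downstream of MYC, and so did 7 of the 9 of siRNA-2. So did 8 of the 16 of control 1 and 4 of the 6 of control 2. Of all 114 regions of the window, 83 lay downstream of the MYC start. Only 1 of the 48 reached a −log10 q of 10, a region of 1049 bp 398 kb downstream after siRNA-1. The region 96.2 kb downstream covered 5208 bp after siRNA-1 and 3482 bp after siRNA-2, against 3574 bp and 3722 bp in the controls. Its percentiles of 91.2 and 76.9 were both above the 56.9 and 55.4 of the controls.

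The remaining regions that reached a −log10 q of 10 in some list, without being called in all, lay mainly in PVT1. Those 155 and 352 kb downstream of MYC were called after siRNA-1 and in both controls but not after siRNA-2. The region 193 kb downstream was called after siRNA-2 and in both controls but not after siRNA-1. The region 87.5 kb downstream was missing only in control 2 and the region 429 kb downstream only in control 1. The region 149 kb downstream was called in the siRNA-1 and control 1 libraries only. Genome-wide, peaks covered 70.4 Mb after siRNA-1 and 61.7 Mb after siRNA-2, against 67.9 Mb in control 1 and 62.1 Mb in control 2, so the first of each pair had more bases under peaks.

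Summit positions of the kept regions differed about as much within a group as between groups. The highest summit of a region lay within 500 bp between siRNA-1 and siRNA-2 in 32 of 39 regions and between the controls in 29 of 39. Between a knockdown library and a control it did so in 26 to 30 of 39. The median distance was 109 to 144 bp over the 6 pairs of libraries, and at most 81 bp over all kept regions.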

How the data were processed

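H3K27ac chromatin immunoprecipitation libraries of A549 cells (1 with each of 2 CEBPB siRNAs, 2 with control siRNA; single-end reads of 101 bases per the labels) were each given as a peak list. The 4 input libraries were not analysed here. Per the submitters' processing notes, MACS2 2.2.7.1, BWA 0.7.17 and SAMtools 1.7.0 were run on build hg19. Their options and any use of inputs were not given in the sources used here. The authors deposited 1 list for each library. The deposited lists give the fold enrichment of each summit as a linear ratio, with its p and q as −log10 values. In 99.96% of peaks the score of the deposited lists equalled the truncated −log10 q times 10. The highest q was 0.0498. Read counts, and so depth, are unknown.

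Peaks of chromosomes 1 to 22 and of X were joined where they overlapped, with Python 3.11.15, pandas 2.3.3 and numpy 2.4.6. Called length is the number of bases under peaks. Regions were assigned to a side of MYC by their centre. Counting was tested on simulated lists. Library values were compared by exact permutation, two-sided. Named were the strong lost region, regions within 1 kb of the MYC and PVT1 starts, all lost and gained regions, the 10 kept regions with the highest lower −log10 q in the controls, kept regions that halved or doubled, and other regions reaching a −log10 q of 10 in any list. The window, its members and these lists were chosen with earlier results of these data known. Kept regions described outside these lists were chosen after their values were seen. The share of called length upstream of MYC, the ranks among kept regions and the values without the region that chose the window were added after seeing the data. No sequence is printed for this chromosome.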

Additional observations from a re-analysis of the deposited data

Results flagged for a closer look

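In 5 of the 39 kept regions the siRNAs went opposite ways, 1 library longer and the other shorter than both controls. Over all chromosomes 16.9% of kept regions did so. Each siRNA had 1 library, so these differences were not tested. The siRNA-1 minus siRNA-2 difference in called length was -486 bp at 911 kb upstream of MYC and -1540 bp at 257 kb upstream. It was 1726 bp at 96.2 kb, 2031 bp at 111.5 kb and 1132 bp at 355 kb downstream.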

How the results depend on the processing

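The region counts in this paragraph are for the window only. Shares over all chromosomes were not counted at these settings, so the counts have no background beside them. Lost regions numbered 5 and kept regions 21 when every list was limited to a −log10 q of 10 or more, where fewer peaks enter. With called length made equal in every list (61.7 Mb), lost regions numbered 6 and gained regions 1. Merging peaks within 1 kb left 6 lost regions, and stitching across wider gaps left 4 lost and 17 kept, since fewer and larger units are counted. Windows of 250 bp on each side of each summit gave 18 lost and 6 gained; the cause of this was not tested. Leaving out 1 library at a time gave 13 to 28 lost regions, 4 to 20 gained regions and 10.9% to 17.3% of bases lost. With all 4 libraries 8.47% of bases were lost, and 5.85% without the region that chose the window. Over all chromosomes 12.4% were lost with all 4. With that region included, the share was 13.5% without control 2 and 17.3% without siRNA-2. Fewer calls are needed when a library is left out, by construction. The difference in called length of the window ranged from -2.55 to 21.4 kb, and was -2.55 kb without control 2 and -0.88 kb without siRNA-1. The difference in number of peaks was -18, but -2 at a −log10 q of 10 or more. The upstream and downstream differences, and the upstream share, kept their direction under all alternatives run for them.

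With knockdown minus control taken within each number of the labels (replicate block), the difference was -22.4 kb upstream, 31.8 kb downstream and 9.40 kb over the window, the same as without it by construction (exact sign-flip permutation p = 0.5, the smallest that 2 pairs allow). Over the 39 kept regions, the number 1 minus number 2 differences in called length of the knockdown and control pairs correlated at r = 0.49; the labels do not say what the numbers share. Depth is unknown, so a missing call sets no limit on the acetylation there.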
